A study of Mus musculus with 8 samples.

Results

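The genes described here are 9 lysosomal cathepsins (Ctsa, Ctsb, Ctsc, Ctsd, Ctsh, Ctsk, Ctsl, Ctss and Ctsz), chosen by name among the 28956 genes of the count tables and followed through the cell classes of mouse femur during fracture repair. All 9 were counted in every group. Cells came from 12-week-old female C57BL/6 wild-type mice. In Fracture mice the left leg had been broken by three-point bending at 10 weeks of age, under ketamine and xylazine and with carprofen as the analgesic. An intramedullary nail held it until bones were taken on day 14. Control mice of the same age were not fractured, and neither sham surgery nor a nail is described for them. Femurs of both groups were digested, and haematopoietic cells were depleted with lineage, CD45 and CD117 beads. The remaining cells went into droplet-based 3′ single cell RNA-seq (10x Chromium), which counts unique molecular identifiers (UMIs), that is, tagged RNA molecules. Each group had 2 cell preparations with 2 libraries each. The 2 libraries of a preparation were summed, so n = 2 preparations per group throughout; the number of mice in a preparation is not given in the sources used here.

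Cathepsins are the peptidases of the lysosome. They are made as inactive proenzymes, carried there mostly by mannose 6-phosphate receptors and activated at acid pH, and cystatins inhibit the cysteine type. Cathepsin D is an aspartic endopeptidase, cathepsin A a serine carboxypeptidase that also shields lysosomal beta-galactosidase and neuraminidase, and the others are cysteine peptidases. In bone, cathepsin K is best known as the collagen-degrading enzyme of osteoclasts, and cathepsin B as an enzyme of septoclasts, the perivascular cells that resorb growth plate cartilage.

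Libraries held 56543151 to 89126291 UMIs. After filters on genes and mitochondrial reads, 45328 of 48903 barcodes remained, and the median cell held 7711 UMIs in Control and 11351 in Fracture. The Control tables began at barcodes of 1 UMI and the Fracture tables at 1929 UMIs. No 2 libraries shared more than 23 cell barcodes. Cells were clustered without the cathepsins, and 9 classes were named from fixed markers, 6 of them stromal. Each class carried its own markers, but with a lower summed level in Fracture for several. BMSC markers in BMSC-like cells (bone mesenchymal stromal cells) summed, in CPM, to 26468 and 27770.2 in Control and 1894 and 2211 in Fracture. CPM is a gene's share of all UMIs of the class on the usual scale. Osteoblast markers in osteoblast-like cells summed to 105047 and 122479.8 in Control and 44304 and 57469.9 in Fracture. Fibroblast markers in fibroblast-like cells summed to 21850.5 and 23079 in Control and 7908 and 8412 in Fracture, and smooth muscle markers in smooth muscle-like cells to 39922 and 37606 in Control and 18993 and 21093 in Fracture. Whether a class held the same kinds of cell in both groups was not tested beyond these markers. Chondrocyte-like cells numbered 2070 and 674 in Control and 6768 and 7073 in Fracture, and BMSC-like cells 2624 and 1728 in Control and 1033 and 1118 in Fracture. Fibroblast-like cells numbered 381 and 136 in Control and 681 and 808 in Fracture, and smooth muscle-like cells 703 and 209 in Control and 166 and 163 in Fracture.

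The 9 genes are protein coding and lie on 6 chromosomes in the GENCODE annotation of GRCm38 (mm10). Ctsa lies on chromosome 2 at 164832873 to 164841032 on the plus strand, overlapping Neurl2 and Pltp on the other strand. Ctsz lies on chromosome 2 at 174427493 to 174439039 on the minus strand, overlapping Nelfcd on the other strand. Ctsd lies on chromosome 7 at 142375911 to 142388038 on the minus strand and Ctsc on chromosome 7 at 88278085 to 88310888 on the plus strand. Ctsk lies on chromosome 3 at 95499256 to 95509362 on the plus strand and Ctss on chromosome 3 at 95526786 to 95556403 on the plus strand. Ctsb lies on chromosome 14 at 63122462 to 63145923 on the plus strand, overlapping Fdft1 on the other strand. Ctsh lies on chromosome 9 at 90054152 to 90076089 on the plus strand and Ctsl on chromosome 13 at 64359337 to 64370890 on the minus strand. The counting's strand setting is not given in the sources used here, so reads of the overlapping antisense genes may not be told apart from those of Ctsa, Ctsb, Ctsc, Ctsl and Ctsz. Gene models on the same strand overlap Ctsd, Ctsl and Ctss.

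RefSeq promoter windows (GRCm38.p6, 250 bases before to 50 after the transcription start) were at hand for 7 of the 9 genes, in 8 windows. They were searched on both strands for CACGTG, the palindromic E-box core within the element that the lysosomal regulator TFEB binds. It occurred in 3 of the 8 windows, and in 7.15% of the 32851 windows in the table. The longer palindrome TCACGTGA, which contains it, occurred in the same Ctsa and Ctsd windows and in 0.974% of all windows. The other Ctsa window and those of Ctsc, Ctsk, Ctss and Ctsz held no CACGTG. The 3 windows that hold CACGTG are shown. Ctsa and Ctsd were each called higher in Fracture in 4 of the 6 stromal classes below. So were Ctsc and Ctsk, whose windows held no CACGTG, and Ctsh, which had no window at hand. For Ctsc and Ctsk these calls include one from which no expression is read below. Ctsl changed in opposite directions between classes. A relation between the motif and these changes was not tested, and a match is a run of letters and not evidence of binding. Capitals mark CACGTG, and each sequence is written 5′ to 3′ on the gene's strand.
Ctsa (chr2:164833523-164833822, plus strand): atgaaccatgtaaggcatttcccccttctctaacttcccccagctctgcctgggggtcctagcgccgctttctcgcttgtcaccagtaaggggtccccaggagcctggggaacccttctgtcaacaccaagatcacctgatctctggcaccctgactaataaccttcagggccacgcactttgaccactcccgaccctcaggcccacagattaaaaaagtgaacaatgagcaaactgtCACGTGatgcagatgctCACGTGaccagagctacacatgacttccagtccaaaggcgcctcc
Ctsd (chr7:142387778-142388077, minus strand): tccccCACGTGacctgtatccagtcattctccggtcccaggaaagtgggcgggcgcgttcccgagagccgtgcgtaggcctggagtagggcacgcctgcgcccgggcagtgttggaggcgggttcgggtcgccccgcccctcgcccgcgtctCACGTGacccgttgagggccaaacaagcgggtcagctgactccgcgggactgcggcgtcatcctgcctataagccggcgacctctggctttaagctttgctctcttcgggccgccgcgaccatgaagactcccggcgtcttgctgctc
Ctsl (chr13:64370471-64370770, minus strand): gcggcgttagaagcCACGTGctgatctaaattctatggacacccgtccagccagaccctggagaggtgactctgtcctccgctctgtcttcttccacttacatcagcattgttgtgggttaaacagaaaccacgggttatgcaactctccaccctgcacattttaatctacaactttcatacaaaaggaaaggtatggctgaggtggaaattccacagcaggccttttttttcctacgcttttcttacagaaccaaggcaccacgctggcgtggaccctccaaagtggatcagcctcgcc
In Ctsa the matches begin 12 bases before and 5 bases after the start, in Ctsd 245 and 98 bases before it, and in Ctsl 236 bases before it.

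Which cells carried each cathepsin was described first, as CPM over all cells of a class with the SD over 2 preparations; classes are clusters of these cells, so no test is given. Ctsl, a potent general endopeptidase, was highest in endothelial-like cells of Control bone (1547 ± 467 CPM), followed by BMSC-like cells (873 ± 8.81). In Fracture bone fibroblast-like cells (659.6 ± 20.3) stood above endothelial-like (594 ± 22.7) and BMSC-like cells (536 ± 11.3). Ctsb was led by BMSC-like cells in Control (649 ± 1.54) and by fibroblast-like cells in Fracture (709.9 ± 0.293). Ctsk was led by fibroblast-like cells in both groups, at 279 ± 19 and 602 ± 14.4 CPM. In Control the BMSC-like (217 ± 32.2) and osteoblast-like cells (189 ± 24.7) came next and overlapped each other, whereas in Fracture they did not (336 ± 11.9 and 234 ± 19.5).

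Ctsd and Ctsz were highest in megakaryocyte-like cells, at 776 ± 11.1 and 668 ± 186 CPM in Control, a class with too few Fracture cells to test. For Ctsd, chondrocyte-like cells moved from the fourth class in Control (284 ± 6.49, overlapping erythroid-like cells) to the second in Fracture (656 ± 26.1). Ctsh, an aminopeptidase, was highest in fibroblast-like (271 ± 59.8) and osteoblast-like cells (197 ± 28.1) of Control, and these 2 classes overlapped in Fracture (339 ± 27.5 and 363 ± 34.9). Ctsc, the dipeptidyl peptidase that activates granule serine proteases of leukocytes, was highest in BMSC-like cells in both groups (78.6 ± 9.93 and 140.3 ± 6.12), with basophil lineage-like (63.9 ± 8.44) and endothelial-like cells (60.2 ± 11.4) next in Control and overlapping. Ctsa ranged from 93.7 ± 13.6 in BMSC-like cells to 13.3 ± 0.626 in megakaryocyte-like cells of Control. Ctss, a cathepsin of antigen-presenting cells, was read in basophil lineage-like cells at 24.7 ± 6.85 and 21 ± 1.02 CPM and stayed under 2 CPM in the mean of every other class.

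**Figure D1:**
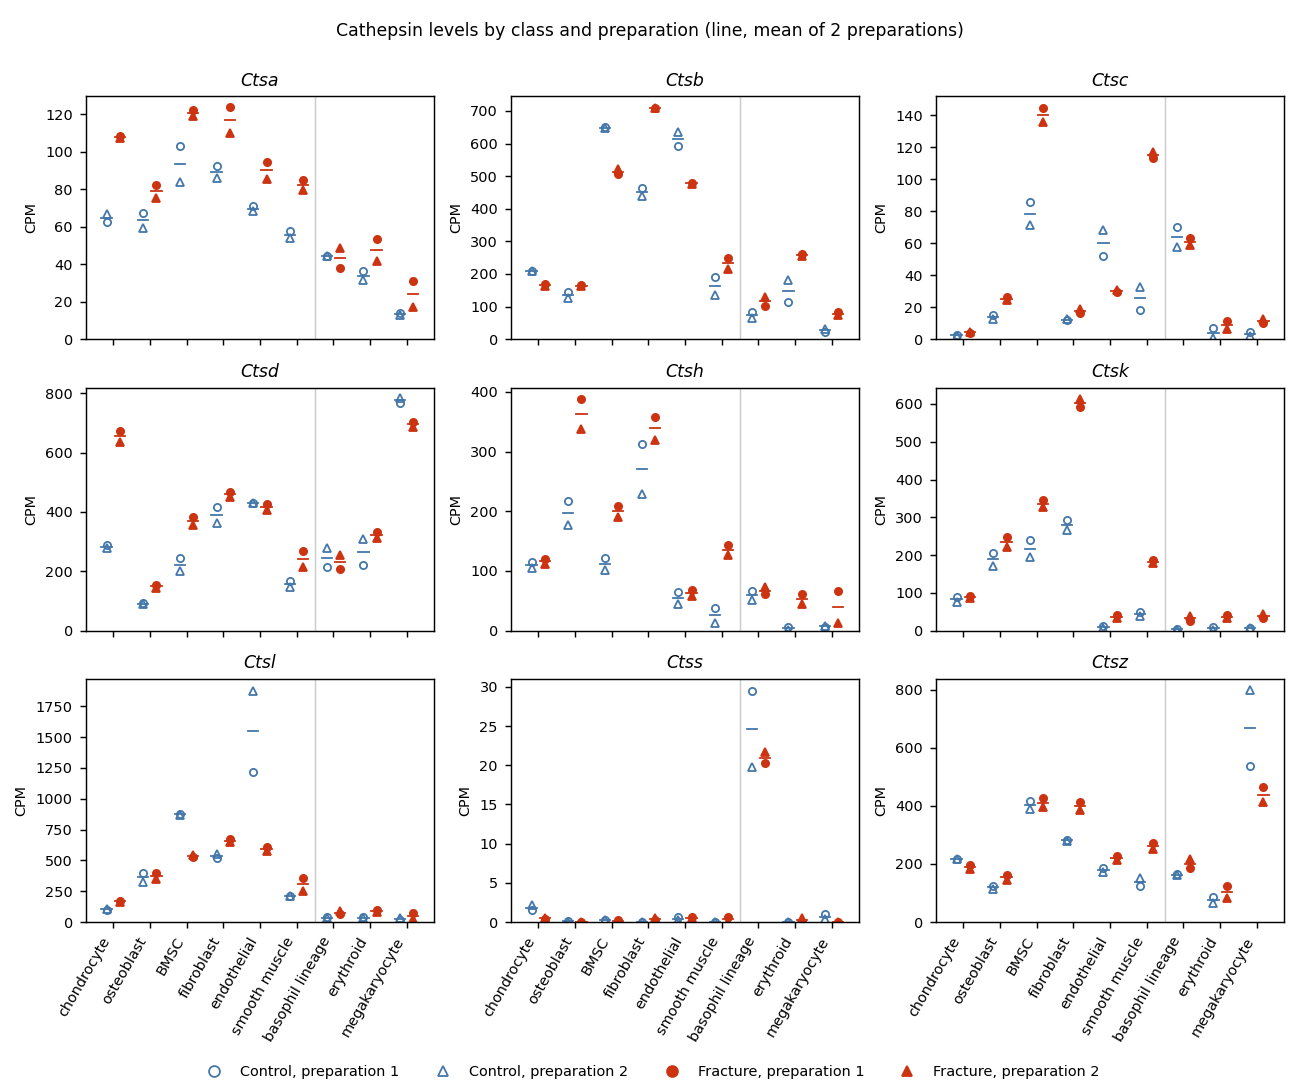
CPM (linear axis from 0, scaled per panel) of each cathepsin in the 9 cell classes, with 1 point per preparation (open blue, Control; filled red, Fracture) and a line at the mean of 2 preparations. Ctsl is highest in endothelial-like cells of Control, Ctsk in fibroblast-like cells of both groups, and Ctss in basophil lineage-like cells.

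A gene's UMIs also moved between classes as cell numbers changed. Of all Ctsd UMIs, chondrocyte-like cells held 19.7% ± 8.25 in Control and 77.7% ± 0.661 in Fracture (mean ± SD, n = 2), and of all Ctsa UMIs 19.6% ± 5.26 in Control and 65.8% ± 0.391 in Fracture. Osteoblast-like cells held 46.4% ± 0.646 in Control and 20.5% ± 0.864 in Fracture of the Ctsk UMIs, while fibroblast-like cells held 5.43% ± 0.869 in Control and 22.5% ± 2.42 in Fracture. Endothelial-like cells held 33.7% ± 11.4 in Control and 17.3% ± 0.586 in Fracture of the Ctsl UMIs, and basophil lineage-like cells 88.6% ± 3.43 in Control and 21.5% ± 2.82 in Fracture of the Ctss UMIs. These shares join the number of cells with their level, so the levels within classes are compared next. Over all cells of a library, for the same reason, Ctsd spanned 254 to 268 CPM in the 4 Control libraries and 501 to 544 in the 4 Fracture libraries, Ctsa 54.4 to 62.9 and 99.4 to 105, Ctsl 335 to 389 and 269.9 to 293, and Ctss 2.52 to 5.95 and 0.447 to 0.583. Ctsc spanned 24.9 to 33.6 and 20.7 to 21.8, Ctsh 75.6 to 121 and 152 to 171, and Ctsk 77.2 to 113 and 145 to 157. Ctsb spanned 232 to 264 and 243 to 253, and Ctsz 179 to 227 and 199 to 227. How many of all genes had ranges apart between the groups was not counted. The 2 libraries of a preparation are not independent either, so no difference is read from these ranges.

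**Figure D2:**
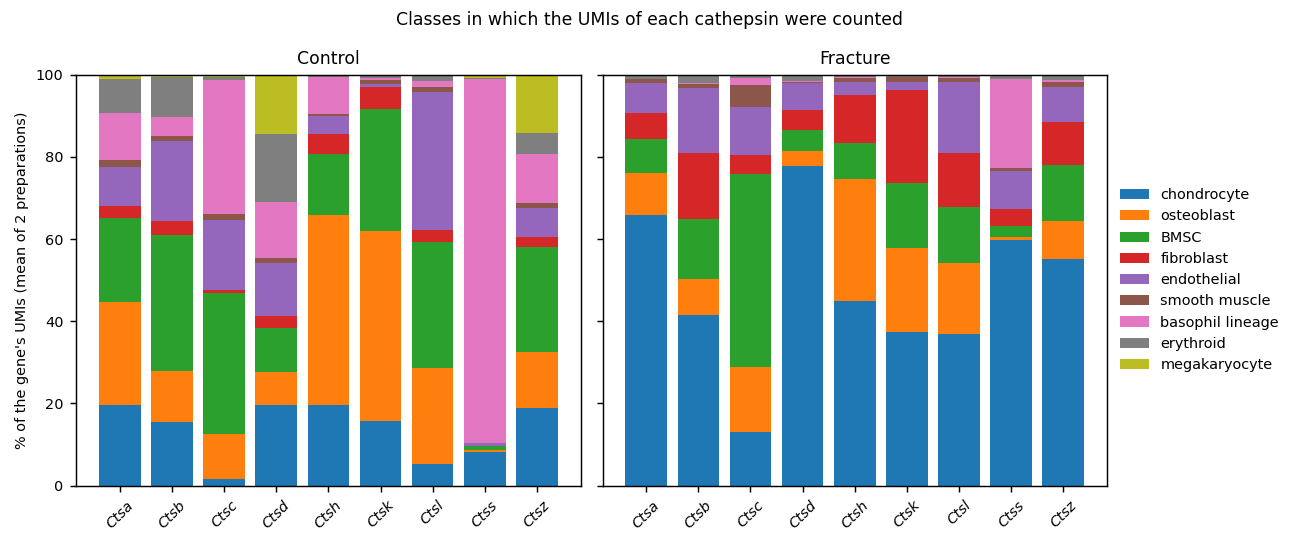
Stacked bars of the mean percent (n = 2 preparations) of each cathepsin's UMIs that came from each of the 9 cell classes, Control on the left and Fracture on the right. The share of chondrocyte-like cells is larger in Fracture for all 9 genes, and reaches 77.7% for Ctsd.

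The levels within a class were compared between Fracture and Control with edgeR's quasi-likelihood test on the summed counts of each preparation. Levels are given below as normalised CPM, scaled by TMM factors, edgeR's correction for library composition. Differences are log2 of Fracture over Control with their standard error (SE). P-values are Benjamini-Hochberg adjusted over all genes tested in that class, and a gene was called when this was under 0.05. In chondrocyte-like cells 5 of the 9 cathepsins rose and 2 fell, where 36.9% of 17272 genes were called, 19% higher and 17.9% lower. In the other stromal classes 8 cathepsins were tested. In osteoblast-like cells 3 rose and 0 fell, where 15.5% of genes were called, 9.39% higher and 6.08% lower. In BMSC-like cells 5 rose and 1 fell (51.5% of genes called, 25.6% higher and 25.9% lower). In fibroblast-like cells 3 rose and 0 fell (17.3% called, 8.99% higher and 8.33% lower). In endothelial-like cells 3 rose and 2 fell (32.9% called, 17.4% higher and 15.5% lower), and in smooth muscle-like cells 6 rose and 0 fell (27.2% called, 14% higher and 13.1% lower). The median log2 difference of the members was 0.27, 0.27, 0.69, 0.52, 0.21 and 0.80 in these classes, where the median over all genes tested lay between -0.03 and 0.01.

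Summed markers of other cell types differed between the groups within these classes, and their part in the differences of the members below was not tested. Only some of the marker lists are printed for each class. In BMSC-like cells chondrocyte markers summed, in CPM, to 601 and 259 in Control and 2395 and 2607 in Fracture, fibroblast markers to 122 and 39.8 in Control and 789.5 and 883 in Fracture and smooth muscle markers to 278 and 202 in Control and 1363 and 1090.3 in Fracture. In smooth muscle-like cells chondrocyte markers summed to 1252 and 1008 in Control and 8945 and 5299.6 in Fracture and fibroblast markers to 686 and 723 in Control and 1809 and 2248 in Fracture. All of these were higher in both Fracture preparations. In fibroblast-like cells chondrocyte markers summed to 3637 and 3097 in Control and 11261 and 10147 in Fracture and osteoclast markers to 59.2 and 84.5 in Control and 174 and 176 in Fracture, again higher in Fracture, while Schwann cell markers summed to 590.3 and 881 in Control and 2.91 and 4.42 in Fracture. In endothelial-like cells chondrocyte markers summed to 1887 and 849 in Control and 12214 and 12479 in Fracture. Markers of the blood cell lists were lower in Fracture there. A UMI of Ptprc, which encodes CD45, was held by 0.4685% of endothelial-like cells, and which cells gave these markers was not tested. Those of monocytes and macrophages summed to 278 and 403 in Control and 62.7 and 61.9 in Fracture, those of the basophil lineage to 408 and 63.9 in Control and 19.7 and 3.78 in Fracture and those of megakaryocytes to 401 and 234 in Control and 37.2 and 39.8 in Fracture. In chondrocyte-like cells osteoblast markers summed to 7039.6 and 8526 in Control and 12941 and 13753 in Fracture, higher in Fracture. In osteoblast-like cells chondrocyte markers summed to 3202 and 2733 in Control and 1985 and 1883 in Fracture and basophil lineage markers to 375 and 80.7 in Control and 17.5 and 2.54 in Fracture, lower in Fracture. Fibroblast markers summed there to 23.9 and 7.39 in Control and 59.3 and 71.4 in Fracture, higher in Fracture. Osteoclast markers summed there to 19.4 and 16.1 in Control and 31.6 and 29.8 in Fracture. Without their member Acp5 they came to 10.5 and 7.63 in Control and 4.54 and 4.38 in Fracture.

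Fewer members were called when either Fracture preparation was left out, where the spread rests on the 2 Control preparations alone. Without Fracture preparation 1, 1 member was called in chondrocyte-like cells (2.5% of genes), 3 in BMSC-like (17.8%) and 2 in smooth muscle-like cells (5.86%) and 0 in osteoblast-like (0%), fibroblast-like (0%) and endothelial-like cells (0%). Without Fracture preparation 2 these were 1, 4, 2, 0, 0 and 0, with 2.49, 21.2, 7.57, 0, 0 and 0% of genes called. Ctsd in chondrocyte-like cells, Ctsc, Ctsd and Ctsh in BMSC-like cells, and Ctsc and Ctsk in smooth muscle-like cells stayed called in both cases. Without Control preparation 1 or 2 the counts were 7 and 6, 7 and 6, 3 and 4, 7 and 4, 7 and 4, and 7 and 5, in the same order of classes. Of all genes tested, 37.5 and 47.8, 61.6 and 59.3, 5.47 and 16.3, 33.8 and 36.4, 18.7 and 26, and 48 and 49.1% were then called. Calls of single members also ended under other choices: Ctsb in chondrocyte-like cells and Ctsa and Ctsd in smooth muscle-like cells without the filter on low counts, and Ctsh in chondrocyte-like cells with doublets removed. With cells clustered without integration of the libraries, Ctsd and Ctsk in BMSC-like cells shrank to log2 differences of 0.24 and 0.21 and were not called, and neither were Ctsa and Ctsd in smooth muscle-like cells. Ctsa in smooth muscle-like cells was not called by DESeq2 either. Division by library size alone, without TMM, moved the median of all genes by -0.18 on the log2 scale in BMSC-like cells and -0.14 in chondrocyte-like cells. The calls of Ctsh in chondrocyte-like, Ctsa in BMSC-like and Ctsz in endothelial-like cells were then lost, and Ctsb was called lower in BMSC-like and endothelial-like cells. In cluster 4 of the chondrocyte-like cells alone the sign of Ctsh turned, with no call, as given below; the sign of no other called effect turned under the alternatives run.

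**Figure D3:**
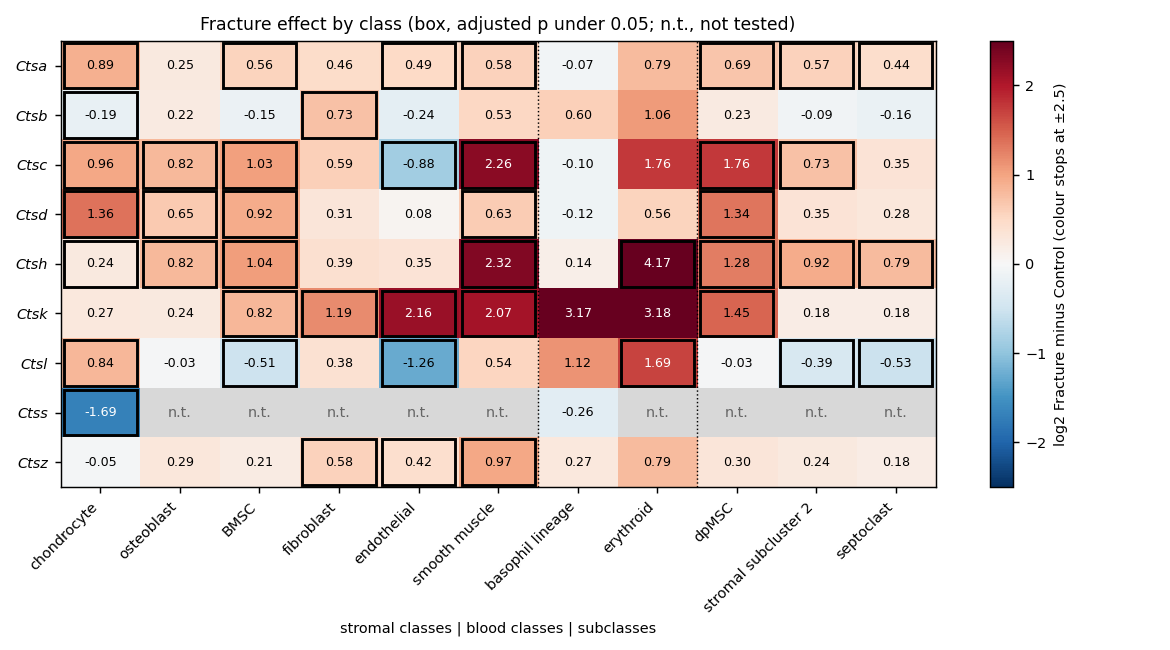
Heat map of the log2 difference of Fracture over Control for each cathepsin (rows) in each class and subclass (columns), with the value printed in its cell, a box where the edgeR adjusted p was under 0.05, and n.t. where a gene was not tested; the colour stops at 2.5. Ctsa, Ctsc, Ctsd, Ctsh and Ctsk are boxed above 0 in 4 of the 6 stromal classes each. Ctsl is boxed above 0 in chondrocyte-like and below 0 in BMSC-like and endothelial-like cells.

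The aspartic endopeptidase gene Ctsd showed its largest stromal rise in chondrocyte-like cells. There it measured, in normalised CPM, 271 and 267 in Control and 705 and 677 in Fracture, so that both Fracture values stood far above both Control values (log2 difference 1.36, SE 0.05, edgeR adjusted p 0.00124). In BMSC-like cells it measured 228 and 188 in Control and 406 and 384 in Fracture (log2 difference 0.92, SE 0.12, edgeR adjusted p 0.00501). In osteoblast-like cells it measured 91.4 and 94.8 in Control and 148 and 145 in Fracture (log2 difference 0.65, SE 0.06, edgeR adjusted p 0.01). In smooth muscle-like cells it measured 169 and 148 in Control and 272 and 221 in Fracture (log2 difference 0.63, SE 0.16, edgeR adjusted p 0.0373). The groups did not overlap in any of these classes. Erythroid-like cells measured 184 and 302 in Control and 361 and 356 in Fracture (edgeR adjusted p 0.256), and the Fracture levels of osteoblast-like and smooth muscle-like cells lay below their Fracture levels. In chondrocyte-like and BMSC-like cells they lay above. Whether erythroid-like cells express Ctsd themselves was not tested. In fibroblast-like and endothelial-like cells the log2 differences were 0.31 and 0.08, with edgeR adjusted p of 0.176 and 0.384. The endothelial-like direction rests on TMM, since CPM without it lay lower in Fracture, at 431 and 430.2 in Control and 427 and 408 in Fracture. The rises came with the marker shifts given above for chondrocyte-like, BMSC-like and smooth muscle-like cells, and the BMSC-like call was lost without integration of the libraries.

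The serine carboxypeptidase gene Ctsa rose in 4 stromal classes. In chondrocyte-like cells it measured 58.6 and 64 in Control and 113 and 114 in Fracture (log2 difference 0.89, SE 0.06, edgeR adjusted p 0.00292). BMSC-like cells measured 96.3 and 79.2 in Control and 130.2 and 128 in Fracture (log2 difference 0.56, SE 0.11, edgeR adjusted p 0.0161). In endothelial-like cells it measured 67.6 and 66.3 in Control and 98 and 90.2 in Fracture (log2 difference 0.49, SE 0.08, edgeR adjusted p 0.0161). All Fracture preparations lay above all Control preparations in these 3 classes. In smooth muscle-like cells it measured 58.1 and 53.9 in Control and 86.2 and 81.9 in Fracture (log2 difference 0.58, SE 0.14, edgeR adjusted p 0.0325), also without overlap. The endothelial-like and smooth muscle-like rises came with the higher chondrocyte markers of these cells given above. In osteoblast-like and fibroblast-like cells the log2 differences were 0.25 and 0.46 (edgeR adjusted p 0.0851 and 0.0683).

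Ctsk, the collagenolytic cathepsin, rose in fibroblast-like, BMSC-like and smooth muscle-like cells; its call in endothelial-like cells is described apart, since no expression is read from it. In fibroblast-like cells it measured 292 and 253 in Control and 608 and 634 in Fracture, higher in both Fracture preparations (log2 difference 1.19, SE 0.13, edgeR adjusted p 0.00977). In BMSC-like cells it measured 224 and 183 in Control and 366 and 353 in Fracture (log2 difference 0.82, SE 0.12, edgeR adjusted p 0.00642), a call that was lost without integration of the libraries. Smooth muscle-like cells measured 49 and 38.9 in Control and 189 and 185 in Fracture (log2 difference 2.07, SE 0.16, edgeR adjusted p 0.00239). The groups were apart in all 3 classes. In chondrocyte-like and osteoblast-like cells the log2 differences were 0.27 and 0.24 (edgeR adjusted p 0.0625 and 0.139). Because Ctsk is abundant in osteoclasts, their 7 markers were summed. In fibroblast-like cells their sum, given above, was higher in Fracture, with Dcstamp at 0 in every preparation. In smooth muscle-like cells they came, in CPM, to 25.7 and 11.1 in Control and 35.7 and 29.4 in Fracture, with Ocstamp, Dcstamp, Calcr and Oscar at 0. Acp5, which is among the 7 markers, measured, in normalised CPM, 22.6 and 17.6 in Control and 120.4 and 125 in Fracture in fibroblast-like cells. Without Acp5 the other 6 markers summed, in CPM, to 36.5 and 66.1 in Control and 56.3 and 55.4 in Fracture, and the groups overlapped. Fibroblast markers, those of the class with the most Ctsk, were higher in Fracture in BMSC-like and smooth muscle-like cells, as given above.

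In endothelial-like cells of Fracture the Ctsk level did not stand above that of erythroid-like cells. Ctsk measured, in normalised CPM, 11.4 and 5.6 in Control and 42 and 34.7 in Fracture there (log2 difference 2.16, SE 0.36, edgeR adjusted p 0.0186). Erythroid-like cells, a class that should lack the gene, measured 7.91 and 2.04 in Control and 45.2 and 37.3 in Fracture, and chondrocyte markers in them summed, in CPM, to 798 and 106 in Control and 19369 and 19496 in Fracture. With every cell thinned to 1000 UMIs, the share of endothelial-like cells with a Ctsk UMI was 0.616% ± 0.349 in Control and 2.72% ± 0.471 in Fracture, against 0.419% ± 0.258 in Control and 2.84% ± 0.602 in Fracture in erythroid-like cells. Before thinning the group means were 3.4% and 17.4% and 2.5% and 19.5%. Median UMIs per cell were 4143.5 and 5338 in Control and 7531 and 8154 in Fracture for endothelial-like and 2932.5 and 8610 in Control and 8283 and 8221.5 in Fracture for erythroid-like cells. No expression of Ctsk is read from the endothelial-like Fracture level; free RNA, which gives UMIs in cells that lack a gene, was not measured itself. The thinned share in fibroblast-like cells was 15.2% ± 3.68 in Control and 41.7% ± 0.0247 in Fracture (49% and 94.2% before thinning), above the erythroid-like share in both groups. In smooth muscle-like cells it was 3.25% ± 0.209 in Control and 16.1% ± 1.21 in Fracture (16% and 68.1% before thinning), also above it.

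Ctsl and Ctsb, endopeptidases of broad specificity, moved in opposite directions in different classes. Ctsl measured 819.6 and 817 in Control and 561 and 586 in Fracture in BMSC-like cells (log2 difference -0.51, SE 0.08, edgeR adjusted p 0.00891). In endothelial-like cells it measured 1158 and 1821 in Control and 633 and 609 in Fracture, lower in both Fracture preparations as well (log2 difference -1.26, SE 0.23, edgeR adjusted p 0.0228). The 2 Control preparations of endothelial-like cells were far apart. In chondrocyte-like cells Ctsl measured 93.8 and 103 in Control and 181 and 172 in Fracture, higher in both Fracture preparations (log2 difference 0.84, SE 0.07, edgeR adjusted p 0.00382). The monocyte and macrophage markers of endothelial-like cells given above were lower in Fracture, as Ctsl was. Their sum is not broken down by gene here, and neither which cells gave it nor its part in the fall of Ctsl was tested. Within the chondrocyte-like class Ctsl was called in cluster 0 and not in cluster 4, as given below. In dpMSC-like cells, a subclass described below, Ctsl measured 861 and 833 in Control and 815 and 845 in Fracture. It was not called there (log2 difference -0.03, SE 0.10, edgeR adjusted p 0.824). This lack of difference rests on TMM. In CPM without it, Ctsl in dpMSC-like cells lay lower in Fracture, at 948 and 904 in Control and 746 and 764 in Fracture. Leaving TMM out moved the median of all genes by -0.26 on the log2 scale in these cells. In osteoblast-like, fibroblast-like and smooth muscle-like cells the log2 differences of Ctsl were -0.03, 0.38 and 0.54 and were not called (edgeR adjusted p 0.873, 0.0833 and 0.083).

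Ctsb measured 464 and 421 in Control and 729 and 736 in Fracture in fibroblast-like cells and rose there (log2 difference 0.73, SE 0.12, edgeR adjusted p 0.0232), in cells whose chondrocyte markers and Acp5 were higher in Fracture. In chondrocyte-like cells it measured 198 and 199.8 in Control and 176 and 173 in Fracture, a small fall in which the groups were nevertheless apart (log2 difference -0.19, SE 0.04, edgeR adjusted p 0.0351). These Fracture values lay below those of erythroid-like cells, where Ctsb measured 95.8 and 178 in Control and 283 and 291 in Fracture (edgeR adjusted p 0.117). Whether erythroid-like cells express Ctsb themselves was not tested. In BMSC-like cells it measured 606 and 611 in Control and 537 and 562 in Fracture and was not called (log2 difference -0.15, SE 0.08, edgeR adjusted p 0.184). The log2 differences in osteoblast-like, endothelial-like and smooth muscle-like cells were 0.22, -0.24 and 0.53 (edgeR adjusted p 0.105, 0.0746 and 0.106).

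Ctss was tested in 1 stromal class. In chondrocyte-like cells it measured, in normalised CPM, 1.41 and 2.11 in Control and 0.462 and 0.569 in Fracture, from UMI counts of 45 and 27 in Control and 39 and 54 in Fracture, and was called lower (log2 difference -1.69, SE 0.30, edgeR adjusted p 0.0174). Basophil lineage markers in the same chondrocyte-like cells summed, in CPM, to 479 and 217 in Control and 2.77 and 7.17 in Fracture and fell in the same direction, and their part was not tested. In the other stromal classes Ctss was too low to pass the filter on counts; fibroblast-like and smooth muscle-like cells of Control held 0 UMIs of it.

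The exopeptidase genes Ctsc and Ctsh were each called higher in 4 stromal classes, and Ctsc fell in endothelial-like cells. Ctsc measured 79.8 and 67.5 in Control and 154 and 146 in Fracture in BMSC-like cells (log2 difference 1.03, SE 0.11, edgeR adjusted p 0.00328). It measured 18.7 and 32.5 in Control and 115 and 120.4 in Fracture in smooth muscle-like cells, its largest stromal rise (log2 difference 2.26, SE 0.27, edgeR adjusted p 0.00486). In osteoblast-like cells it measured 14.9 and 13.3 in Control and 25 and 24.6 in Fracture (log2 difference 0.82, SE 0.09, edgeR adjusted p 0.0137). The chondrocyte-like level was low, at 2.66 and 2.03 in Control and 4.35 and 5.02 in Fracture (log2 difference 0.96, SE 0.18, edgeR adjusted p 0.0197). Erythroid-like cells measured 5.72 and 0.841 in Control and 12.4 and 7.52 in Fracture (edgeR adjusted p 0.303), so both chondrocyte-like Fracture values lay below both erythroid-like ones, and no expression is read from them. In endothelial-like cells it fell, measuring 49.6 and 66.3 in Control and 30.9 and 32.3 in Fracture (log2 difference -0.88, SE 0.16, edgeR adjusted p 0.0228), and the blood cell markers of these cells given above were lower in Fracture too. No group overlapped with the other in these 5 classes, and in fibroblast-like cells the log2 difference was 0.59 (edgeR adjusted p 0.0912).

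Ctsh measured 217 and 186 in Control and 370.3 and 339 in Fracture in osteoblast-like cells (log2 difference 0.82, SE 0.10, edgeR adjusted p 0.0161). It measured 113 and 95.1 in Control and 222 and 206 in Fracture in BMSC-like cells (log2 difference 1.04, SE 0.11, edgeR adjusted p 0.00346) and, in smooth muscle-like cells, 38.2 and 13.5 in Control and 145 and 130.02 in Fracture (log2 difference 2.32, SE 0.42, edgeR adjusted p 0.0141). Both Fracture preparations were above both Control preparations in each. In chondrocyte-like cells the rise was small, at 108 and 100.1 in Control and 126 and 119 in Fracture (log2 difference 0.24, SE 0.06, edgeR adjusted p 0.0462). It was called in neither of the 2 clusters of that class, where the log2 differences were 0.21 in cluster 0 and -0.12 in cluster 4 (edgeR adjusted p 0.0992 and 0.263). In fibroblast-like and endothelial-like cells the log2 differences were 0.39 and 0.35 (edgeR adjusted p 0.23 and 0.234).

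Ctsz, a carboxypeptidase gene, rose in 3 classes. In fibroblast-like cells it measured 283 and 267 in Control and 423 and 399 in Fracture (log2 difference 0.58, SE 0.11, edgeR adjusted p 0.0324). In endothelial-like cells it measured 178 and 166 in Control and 237 and 224 in Fracture (log2 difference 0.42, SE 0.07, edgeR adjusted p 0.0197). In smooth muscle-like cells it measured 126 and 149.9 in Control and 278 and 260.03 in Fracture, the largest log2 difference of the 3 (0.97, SE 0.15, edgeR adjusted p 0.00846). In chondrocyte-like cells it differed by -0.05 (edgeR adjusted p 0.515), and in osteoblast-like and BMSC-like cells by 0.29 and 0.21 (edgeR adjusted p 0.0506 and 0.0882). The fibroblast-like, endothelial-like and smooth muscle-like rises came with the higher chondrocyte markers of these classes given above.

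Whether the Fracture effect differed between the 6 stromal classes was tested as a class-by-group term with preparation as a block. For 8 cathepsins the effect differed, where 60.9% of 17025 genes did. Ctss passed the threshold as well, but it was too low to be tested within 5 of the 6 classes, with 0 UMIs in fibroblast-like and smooth muscle-like cells of Control, so no difference between classes is read for it. Against BMSC-like cells, the Ctsl effect was higher in chondrocyte-like cells (log2 1.37, SE 0.20, edgeR adjusted p 3.82e-05; 42.3% of genes called in this contrast) and lower in endothelial-like cells (log2 -0.72, SE 0.20, edgeR adjusted p 0.0136; 26.8%). It was also higher in fibroblast-like and smooth muscle-like cells, by 0.95 and 1.09 on the log2 scale. The Ctsb effect was higher in fibroblast-like cells (log2 0.94, SE 0.14, edgeR adjusted p 0.00012; 24%), and by 0.40 in osteoblast-like and 0.69 in smooth muscle-like cells. The Ctsc effect was higher in smooth muscle-like cells (log2 1.38, SE 0.25, edgeR adjusted p 0.0007; 19.3%) and lower in endothelial-like cells (log2 -1.87, SE 0.19, edgeR adjusted p 1.13e-06). The Ctsk effect was lower in osteoblast-like (log2 -0.55, SE 0.13, edgeR adjusted p 0.00385; 32.7%) and chondrocyte-like cells (log2 -0.54, SE 0.13, edgeR adjusted p 0.00323) than in BMSC-like cells and higher in smooth muscle-like cells (log2 1.30, SE 0.17, edgeR adjusted p 3.16e-05); it was higher, too, by 0.43 in fibroblast-like and by 1.36 in endothelial-like cells, whose Fracture level did not stand above that of erythroid-like cells. The Ctsd effect was higher in chondrocyte-like cells (log2 0.45, SE 0.12, edgeR adjusted p 0.00501) and lower in endothelial-like (log2 -0.83, SE 0.12, edgeR adjusted p 4.94e-05) and fibroblast-like cells (log2 -0.56, SE 0.12, edgeR adjusted p 0.0024). The Ctsh effect was higher in smooth muscle-like cells (log2 1.25, SE 0.22, edgeR adjusted p 0.000564) and lower by 0.79 in chondrocyte-like, 0.66 in endothelial-like and 0.58 in fibroblast-like cells. The Ctsa effect was higher in chondrocyte-like cells (log2 0.35, SE 0.11, edgeR adjusted p 0.0155). The Ctsz effect was higher in smooth muscle-like cells (log2 0.83, SE 0.10, edgeR adjusted p 1.27e-05) and, by 0.42, in fibroblast-like cells, and lower by 0.25 in chondrocyte-like cells. No other contrast of a member against BMSC-like cells was called. These contrasts were not run without integration of the libraries, a choice under which the BMSC-like effects of Ctsd and Ctsk shrank and lost their calls.

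A second clustering, of the BMSC-like cells together with the osteoblast-like and fibroblast-like ones, was made to look for diaphyseal (dpMSC) and metaphyseal (mpMSC) stromal cells. Subcluster 1 carried all 5 dpMSC markers and is called dpMSC-like. It held 1708 and 1245 cells in Control and 244 and 309 in Fracture. Stromal subcluster 2 carried 4 of 5 mpMSC and 5 of 7 septoclast markers, and its 10 leading genes held 2 septoclast markers (Mmp9 and Mmp13) and 1 mpMSC marker (Mmp13), so it is called by its number. A finer clustering gave septoclast-like cells, which overlap stromal subcluster 2 and are not an independent group. They carried 5 of 7 septoclast and 3 of 5 mpMSC markers and numbered 459 and 234 in Control and 393 and 417 in Fracture. The authors describe cells with Fabp5 and Mmp9 as scarce in their Control metaphyseal cluster and increased after fracture. In dpMSC-like cells 5 of 8 cathepsins rose and 0 fell (43.6% of genes called, 22.7% higher and 20.9% lower). Ctsk measured 201 and 174 in Control and 520.1 and 504 in Fracture (log2 difference 1.45, SE 0.11, edgeR adjusted p 0.000946). Ctsd measured 221 and 181 in Control and 508 and 509 in Fracture (log2 difference 1.34, SE 0.12, edgeR adjusted p 0.00163). Ctsc measured 40.4 and 46 in Control and 140.2 and 153 in Fracture (log2 difference 1.76, SE 0.11, edgeR adjusted p 0.000737). The groups were apart for all 3, and Ctsh and Ctsa rose as well, by 1.28 and 0.69 on the log2 scale (edgeR adjusted p 0.00112 and 0.0126). The call of Ctsa was lost with library size alone as the scaling. In stromal subcluster 2, where 27.1% of genes were called (14.4% higher and 12.7% lower), Ctsa, Ctsc and Ctsh rose and Ctsl fell. Ctsk was not called there, at 246 and 201 in Control and 259.5 and 249 in Fracture (log2 difference 0.18, SE 0.11, edgeR adjusted p 0.277). Ctsl measured 763 and 749 in Control and 583 and 567 in Fracture (log2 difference -0.39, SE 0.07, edgeR adjusted p 0.017). BMSC markers in the dpMSC-like cells summed, in CPM, to 43056 and 37454 in Control and 4573 and 5203 in Fracture. Summed markers of other cells were higher in Fracture. Fibroblast markers summed, in CPM, to 33.7 and 20.2 in Control and 1501 and 1595 in Fracture, smooth muscle markers to 320.4 and 242 in Control and 1835 and 1684 in Fracture and chondrocyte markers to 387 and 112 in Control and 2914 and 3093 in Fracture. What kinds of cell the Fracture part of this cluster holds, and their part in the rise of Ctsk and the other members, was not tested. Clustering without integration of the libraries was not run for the subclasses. In BMSC-like cells that choice had ended the calls of Ctsd and Ctsk. In stromal subcluster 2 fibroblast markers summed, in CPM, to 105 and 68.7 in Control and 382 and 519 in Fracture. Without Fracture preparation 1 or 2, 4 members stayed called in dpMSC-like cells (Ctsc, Ctsd, Ctsh and Ctsk), where 24% and 26.7% of genes were, and 0 in stromal subcluster 2 (1.6% and 2.68%). Without Control preparation 1 or 2 the counts were 6 and 5 in dpMSC-like cells (47.9% and 48.3% of genes) and 6 and 4 in stromal subcluster 2 (30.8% and 33.1%).

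The difference between the 2 subclasses was tested directly, a test added after the values by class were seen. The Fracture effect was higher in dpMSC-like cells than in stromal subcluster 2 for Ctsk (log2 1.26, SE 0.11, edgeR adjusted p 4.48e-10), Ctsc (log2 1.05, SE 0.13, edgeR adjusted p 6.95e-07) and Ctsd (log2 1.00, SE 0.11, edgeR adjusted p 5.56e-08), where 23.2% of 13284 genes were called. Ctsl (0.37), Ctsh (0.36) and Ctsb (0.32) were called too, but with library size alone as the scaling only Ctsc, Ctsd and Ctsk were. Without Fracture preparation 1 or 2, 3 and 4 members stayed called (16.1% and 16.8% of genes), and without Control preparation 1 or 2, 4 and 6 (19.6% and 20.6%). Ctsa and Ctsz showed no called difference (log2 0.13, SE 0.12, edgeR adjusted p 0.513, and log2 0.06, SE 0.11, edgeR adjusted p 0.773).

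In septoclast-like cells, named for a cell type known for cathepsin B, Ctsb measured, in normalised CPM, 571 and 553 in Control and 503 and 504 in Fracture and was not called (log2 difference -0.16, SE 0.07, edgeR adjusted p 0.19). In CPM without TMM, Ctsb stood at 664 and 673 in Control and 614 and 689 in Fracture in dpMSC-like cells. It was lower in each preparation of septoclast-like cells, at 596 and 564 in Control and 486 and 482 in Fracture. In osteoblast-like cells it was lower still, at 144 and 125 in Control and 166 and 163 in Fracture. The authors report high Ctsb in Fabp5+ cells sorted by Pdgfra-GFP from bone of younger mice, so age and selection of cells differ from those here. In septoclast-like cells Ctsa and Ctsh rose and Ctsl fell (20.4% of genes called, 11.2% higher and 9.24% lower). Ctsh measured 150.4 and 115 in Control and 225 and 236 in Fracture (log2 difference 0.79, SE 0.14, edgeR adjusted p 0.0191). Ctsl measured 762 and 735 in Control and 526 and 510.3 in Fracture (log2 difference -0.53, SE 0.08, edgeR adjusted p 0.0121). Ctsa measured 104 and 107 in Control and 144 and 141 in Fracture and lost its call with DESeq2 (log2 difference 0.44, SE 0.08, edgeR adjusted p 0.0225). Ctsk differed by 0.18 (edgeR adjusted p 0.234). In these cells BMSC markers summed, in CPM, to 2165 and 1979 in Control and 644 and 643 in Fracture, fibroblast markers to 148 and 103 in Control and 434 and 611 in Fracture and chondrocyte markers to 957 and 679.7 in Control and 1821 and 1822 in Fracture. The first were lower and the others higher in Fracture, and their part was not tested. Without Fracture preparation 1 or 2, 0 members were called in these cells (0.371% and 1.14% of genes), and without Control preparation 1 or 2, 4 and 3 (25.1% and 29%).

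**Figure D4:**
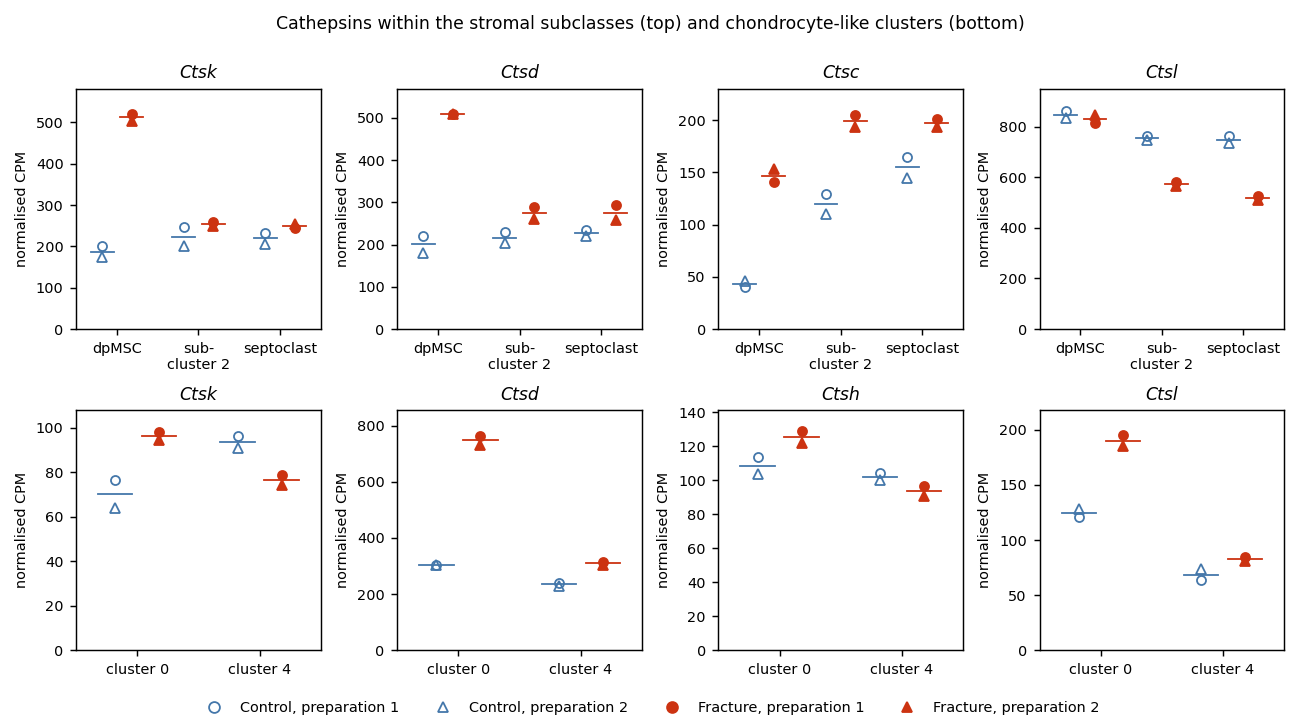
Normalised CPM (axes from 0) of Ctsk, Ctsd, Ctsc and Ctsl in dpMSC-like cells, stromal subcluster 2 and septoclast-like cells (top) and of Ctsk, Ctsd, Ctsh and Ctsl in the 2 chondrocyte-like clusters (bottom), with 1 point per preparation (open blue, Control; filled red, Fracture) and lines at group means. Ctsk is higher in Fracture in dpMSC-like cells and lies between 201 and 259.5 CPM in stromal subcluster 2 of both groups, and Ctsd differs more in chondrocyte-like cluster 0 than in cluster 4.

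The chondrocyte-like class consisted of 2 clusters. Cluster 0, led by Col10a1 and Ihh, genes of hypertrophic and prehypertrophic chondrocytes, held 1125 and 388 cells in Control and 5582 and 5832 in Fracture. Cluster 4 held 945 and 286 in Control and 1186 and 1241 in Fracture, so the mixture within the class differed between the groups. With cells clustered without integration of the libraries, the cluster with Col10a1 and Ihh among its leading genes was smaller in Control. It held 265 and 86 cells in Control and 5639 and 5920 in Fracture. The tests within and between clusters 0 and 4 were not run without integration. In cluster 0, 5 of 9 members rose and 2 fell (30.2% of genes called, 15.7% higher and 14.5% lower), and in cluster 4, 2 of 8 rose and 0 fell (13% called, 8.09% higher and 4.94% lower). Ctsd rose in both. It measured 304 and 304 in Control and 764 and 732 in Fracture in cluster 0 (log2 difference 1.30, SE 0.06, edgeR adjusted p 0.00119). In cluster 4 it measured 239.99 and 229.7 in Control and 315 and 305 in Fracture (log2 difference 0.40, SE 0.06, edgeR adjusted p 0.0263). Ctsa also rose in cluster 4, at 47.6 and 53.8 in Control and 66.6 and 70.4 in Fracture (log2 difference 0.44, SE 0.09, edgeR adjusted p 0.0464). These 2 genes were called in both clusters in the direction of the whole class. Ctsl, Ctsb and Ctsc were called in cluster 0, by 0.61, -0.28 and 0.61 on the log2 scale, and not in cluster 4, where they differed by 0.27, -0.22 and 0.58 (edgeR adjusted p 0.125, 0.0658 and 0.483). Ctss was called lower in cluster 0 and not tested in cluster 4. Ctsk rose in cluster 0, at 76.4 and 63.7 in Control and 98 and 94.4 in Fracture (log2 difference 0.46, SE 0.10, edgeR adjusted p 0.0342). It was not called in cluster 4, at 96.1 and 91 in Control and 78.8 and 74.4 in Fracture (log2 difference -0.29, SE 0.07, edgeR adjusted p 0.0616). Tested directly, again after the values were seen, the effect was higher in cluster 0 for Ctsd (log2 0.89, SE 0.07, edgeR adjusted p 3.67e-07) and Ctsk (log2 0.71, SE 0.08, edgeR adjusted p 1.71e-05), and also for Ctsa, Ctsh and Ctsl, where 19.7% of 15059 genes were called. Only Ctsd and Ctsk stayed called in this test without Fracture preparation 1 or 2; 9.99% and 8.69% of genes were. Without Control preparation 1 or 2, 4 and 5 members were (13.6% and 23.5% of genes).

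Among the blood cells that depletion had left, 0 of 9 cathepsins and 0 of 12450 genes were called by edgeR in basophil lineage-like cells (0%). An unadjusted p under 0.05 was seen for 2627 genes and 3 members, and DESeq2 called 1096 genes and 2 members, Ctsk and Ctsl. Only 88 and 83 such cells came from Fracture. Ctss, which these cells carry, measured, in normalised CPM, 29.5 and 20.5 in Control and 19.9 and 21.7 in Fracture, with overlapping groups (log2 difference -0.26, SE 0.27, edgeR adjusted p 0.641). Ctsl measured 38.6 and 31.9 in Control and 63.5 and 89.5 in Fracture (log2 difference 1.12, SE 0.23, edgeR adjusted p 0.107). The class did not hold the same mixture in both groups, since its neutrophil lineage markers summed, in CPM, to 5273 and 8258 in Control and 43644 and 52908 in Fracture and its basophil lineage markers to 30366 and 37770.5 in Control and 9289 and 9962 in Fracture. In erythroid-like cells Ctsh and Ctsl rose (10.5% of genes called, 9.25% higher and 1.27% lower). Ctsh measured 5.5 and 1.76 in Control and 66 and 51.1 in Fracture (log2 difference 4.17, SE 0.61, edgeR adjusted p 0.0334). Ctsl measured 33.2 and 30.5 in Control and 109.5 and 95.2 in Fracture (log2 difference 1.69, SE 0.16, edgeR adjusted p 0.0228). Both rises came with the rise of chondrocyte markers in the same cells given above, whose part was not tested. No member was called there without Fracture preparation 1 or 2 (0% and 0% of genes), and 7 were without Control preparation 1 or 2 (52.3% and 43.3%).

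The share of cells in which a cathepsin was read, after thinning to 1000 UMIs, followed the levels. For Ctsd in chondrocyte-like cells it was 24.1% ± 0.793 in Control and 43.3% ± 1.32 in Fracture (90.1% and 97% before thinning). Erythroid-like cells showed 21.9% ± 2.63 in Control and 24.9% ± 1.32 in Fracture (64.1% and 81.7% before thinning). Their Ctsd level in Control was 220 and 309 CPM, and their chondrocyte markers, given above, were lower in the preparation with more Ctsd. Whether erythroid-like cells express Ctsd themselves was not tested, so their share cannot serve as a background for this gene. For Ctsc in BMSC-like cells the thinned share was 6.01% ± 0.516 in Control and 12.6% ± 0.556 in Fracture (28% and 56.5%), against 0.273% ± 0.258 in Control and 0.649% ± 0.187 in Fracture in erythroid-like cells (2.1% and 5.19%). For Ctsh in smooth muscle-like cells it was 1.66% ± 0.728 in Control and 10.2% ± 0.961 in Fracture (8.71% and 45%), against 0.399% ± 0.244 in Control and 3.6% ± 0.835 in Fracture (2.11% and 19.7%). Median UMIs per cell of these classes were 14258.5 and 18208 in Control and 12301 and 13182 in Fracture for chondrocyte-like cells, 5331.5 and 6801.5 in Control and 8403 and 8675.5 in Fracture for BMSC-like cells and 4499 and 5698 in Control and 7397.5 and 7737 in Fracture for smooth muscle-like cells. Fibroblast-like cells held medians of 6631 and 8467 in Control and 9949 and 10745 in Fracture. Thinning left out at most 92 cells of a class, all of them in Control.

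The genes whose level followed a cathepsin most closely were sought over 36 profiles (9 classes in 4 preparations) among 6873 genes, by Pearson's r of log2(CPM + 1); profiles of a preparation share libraries and depth, and no p is given. Ctsk was followed by Pcolce (r = 0.964), Mrc2 (r = 0.964) and Pdgfc (r = 0.955), the first 2 encoding a procollagen C-proteinase enhancer and a collagen receptor. Ctsz was followed by Lamp2 (r = 0.898), Hexa (r = 0.869) and Sap30l (r = 0.864), of which Lamp2 is a lysosomal membrane protein and Hexa a lysosomal hydrolase. For Ctsd these genes were Tubb2a (r = 0.878), Csgalnact1 (r = 0.875) and Pdcd6ip (r = 0.807). For Ctsl they were Reep3 (r = 0.944), Stox2 (r = 0.939) and Zswim8 (r = 0.934). For Ctss they were Ms4a6c (r = 0.929), Elane (r = 0.926) and Clec12a (r = 0.923), of which Elane encodes neutrophil elastase. For Ctsa they were Akr1a1 (r = 0.943), Rer1 (r = 0.942) and Txndc15 (r = 0.939), and for Ctsb Emc3 (r = 0.918), Slc29a1 (r = 0.887) and Ifi27 (r = 0.882). For Ctsc they were Il3ra (r = 0.871), BC028528 (r = 0.852) and Ifitm2 (r = 0.834), and for Ctsh Arl1 (r = 0.915), Prrc1 (r = 0.912) and Arf4 (r = 0.912). Between the members themselves r reached 0.86 for Ctsb with Ctsl and 0.82 for Ctsh with Ctsk and for Ctsa with Ctsb.

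The proteins that deliver, activate and inhibit cathepsins were read from lists of other lysosomal genes. Lgmn, the legumain that cleaves several procathepsins, rose in 5 stromal classes. It measured, in normalised CPM, 182 and 179 in Control and 329 and 318 in Fracture in chondrocyte-like cells (log2 difference 0.84, SE 0.05, edgeR adjusted p 0.00205). In fibroblast-like cells it measured 69.9 and 54.1 in Control and 147 and 131 in Fracture (log2 difference 1.15, SE 0.16, edgeR adjusted p 0.0166). It also rose in osteoblast-like, BMSC-like and smooth muscle-like cells, by 0.50, 0.65 and 1.07 on the log2 scale. Cst3, which encodes the inhibitor cystatin C, measured 2984 and 2729 in Control and 1759.9 and 1928 in Fracture in BMSC-like cells (log2 difference -0.63, SE 0.14, edgeR adjusted p 0.0219) and fell in fibroblast-like cells too (-1.18). In endothelial-like cells it rose, at 1686 and 1124 in Control and 3348 and 3122 in Fracture (log2 difference 1.20, SE 0.22, edgeR adjusted p 0.023). The chondrocyte markers of endothelial-like cells given above were higher in Fracture too. In erythroid-like cells the 2 cystatins tested also rose, with a list median of 2.81 on the log2 scale. The part of free RNA in the endothelial-like rise was not tested. Among the 9 delivery and activation genes, 2 rose and 7 fell in BMSC-like cells, and 3 and 1 in chondrocyte-like, 1 and 0 in osteoblast-like, 3 and 0 in fibroblast-like, 1 and 2 in endothelial-like and 3 and 1 in smooth muscle-like cells, with list medians from -0.42 to 0.19 on the log2 scale. In the order chondrocyte-like, osteoblast-like, BMSC-like, fibroblast-like, endothelial-like and smooth muscle-like, the shares of all genes called were 36.9, 15.5, 51.5, 17.3, 32.9 and 27.2%, and those that rose and fell among the 4 cystatins, of which 2 were tested in osteoblast-like and smooth muscle-like and 3 in endothelial-like cells, were 2 and 1, 0 and 0, 1 and 1, 0 and 2, 3 and 0, and 0 and 0, with medians from -0.62 to 1.20.

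Other lysosomal genes were counted against the same shares of genes called. In the same order of classes, those that rose and fell among the 28 other acid hydrolases, of which 24 were tested in smooth muscle-like cells, were 9 and 4, 9 and 0, 4 and 7, 3 and 0, 9 and 1, and 7 and 2, with list medians from -0.18 to 0.39 on the log2 scale. Among the 10 lysosomal membrane genes, 8 of them tested in smooth muscle-like cells, they were 3 and 0, 1 and 1, 2 and 2, 1 and 1, 3 and 0, and 3 and 0 (medians -0.25 to 0.54). Lamp1 and Lamp2, the main membrane glycoproteins, fell in BMSC-like cells (-0.46 and -0.45), whereas 5 cathepsins rose there. Among the 16 subunits of the v-ATPase, the proton pump that acidifies lysosomes, 15 of them tested in smooth muscle-like cells, they were 5 and 1, 0 and 1, 6 and 4, 3 and 1, 2 and 2, and 2 and 3 (medians -0.09 to 0.11). Atp6v1e1 rose in chondrocyte-like cells, at 67.3 and 75.6 in Control and 148 and 150.3 in Fracture (log2 difference 1.06, SE 0.07, edgeR adjusted p 0.00278). Among the 4 lysosomal transcription factors, 3 of them tested in each class but the endothelial-like, where 4 were, they were 1 and 0, 0 and 0, 0 and 0, 0 and 1, 0 and 2, and 0 and 0 (medians -0.65 to 0.20). Tfe3 was the factor that rose in chondrocyte-like cells (0.44). Among the 5 other cathepsin genes, 3 of them tested in smooth muscle-like cells, they were 1 and 1, 0 and 2, 1 and 3, 1 and 2, 1 and 2, and 0 and 1 (medians -0.97 to 0.21). Ctsw rose in chondrocyte-like cells, at 9.36 and 13.3 in Control and 48 and 48.6 in Fracture (log2 difference 2.10, SE 0.18, edgeR adjusted p 0.00433). Ctso fell in BMSC-like, fibroblast-like and endothelial-like cells (-0.97, -0.63 and -0.59).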

How the data were processed

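The authors deposited a table of UMI counts per gene and cell for each of 8 libraries (4 Control, 4 Fracture), without normalization. The published methods name fastp, STARsolo and GENCODE annotation on mm10 (STAR 2.7.3a), whereas the submitters' processing notes list bcl2fastq 2.19.1.403, UMI-tools 1.0.0, Subread and featureCounts 1.6.4; which tool counted these tables, and with which strand setting, is not given in the sources used here. The published methods name EmptyDrops as a pre-filter of count matrices; whether it was run on these tables is not given in the sources used here. Cells with 500 to 6000 genes and at most 25% mitochondrial UMIs passed, as did genes present in 3 cells or more (45328 cells, 26180 genes). Libraries were integrated in Seurat 5.3.0 on 1936 variable genes, from which cell cycle genes, the cathepsins and every listed gene had been removed, and clusters were named from fixed markers. Scrublet called 526 doublets (1.16% of cells, at an expected rate of 6%), which were kept and removed in an alternative.

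Counts were summed per class and preparation where each preparation held at least 20 cells, and tested with edgeR 4.0.16 (TMM, filterByExpr, glmQLFit and glmQLFTest; SE from the F statistic) over all genes, with Benjamini-Hochberg adjustment at 0.05. DESeq2 1.42.0, other size factors, no count filter, a replicate block, doublet removal, a minimum of 2000 UMIs, clustering without integration and leaving out each preparation were alternatives. All tests were also run on simulated counts with known changes. That both libraries of a preparation come from a single suspension is an assumption not stated in the methods. P-values of the tests within a class measure the spread between 2 preparations. In the tests between classes the preparation is a block, which takes out the spread shared by all classes of a preparation. The p-values of those tests rest on the spread that is left. Exact permutation of 2 against 2 preparations cannot give a p under 0.333, so none is printed. Counting error alone bounds the precision of low counts, such as those of Ctss.

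Named genes are the 9 members and, of each other list (other cathepsins, cystatins, delivery and activation, lysosomal membrane, acid hydrolases, v-ATPase, lysosomal transcription factors), the 2 largest called rises and falls per stromal class with a mean of at least 20 CPM, of which some are printed; for likeness, the 3 closest genes. Members, lists and tests were chosen with earlier results of these data known.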

Additional observations from a re-analysis of the deposited data

Results flagged for a closer look

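In the edgeR class-by-group test over the 6 stromal classes, the Fracture effect of 8 cathepsins differed between classes. The adjusted p was 0.00261 for Ctsa, 3.31e-05 for Ctsb, 2.99e-07 for Ctsc, 1.64e-06 for Ctsd, 7.69e-06 for Ctsh, 6.65e-08 for Ctsk, 1.75e-06 for Ctsl and 1.82e-06 for Ctsz. In the same test 60.9% of all genes differed. Ctss passed the threshold too (edgeR adjusted p 0.0378), but with counts near 0 in stromal classes other than the chondrocyte-like no difference is read for it. Without Control preparation 1 or 2, 8 of the 9 members stayed called (55% and 58.6% of genes), and without Fracture preparation 1 or 2, 7 did (30.4% and 30.6%).

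Between dpMSC-like cells and stromal subcluster 2 the Fracture effect differed for 6 cathepsins, as the effect in dpMSC-like cells minus that in stromal subcluster 2 on the log2 scale: 1.26 for Ctsk, 1.05 for Ctsc, 1.00 for Ctsd, 0.37 for Ctsl, 0.36 for Ctsh and 0.32 for Ctsb. Without Fracture preparation 1 or 2, 3 and 4 of the 6 stayed called, and without Control preparation 1 or 2, 4 and 6 did.

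Between chondrocyte-like clusters 0 and 4 it differed for 5 cathepsins, as cluster 0 minus cluster 4: 0.89 for Ctsd, 0.71 for Ctsk, 0.31 for Ctsh, 0.31 for Ctsl and 0.28 for Ctsa. Leaving out either Fracture preparation left 2 of them called, Ctsd and Ctsk, and leaving out Control preparation 1 or 2 left 4 and 5. Both of these comparisons were added after the values by class had been seen, and neither was run on clusters made without integration.

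None of the 18 groups of 4 libraries, each cathepsin in Control and in Fracture over all cells, held a library far from its nearest neighbour. Since the 2 libraries of a preparation lay close together, this rule could not flag a preparation that differed. Ctsh, for example, measured 119 and 121 CPM in the libraries of Control preparation 1 and 83.6 and 75.6 in those of Control preparation 2.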

How the results depend on the processing

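With 2 preparations per group, the spread within a group rests on few values, and counts of called members changed when a preparation was left out. Over the 4 cases these counts spanned 1 to 7 in chondrocyte-like cells, 0 to 7 in osteoblast-like, 3 to 7 in BMSC-like, 0 to 7 in fibroblast-like, 0 to 7 in endothelial-like, 2 to 4 in smooth muscle-like, 0 to 3 in basophil lineage-like, 0 to 7 in erythroid-like, 4 to 6 in dpMSC-like cells, 0 to 6 in stromal subcluster 2, 0 to 4 in septoclast-like cells, 7 to 8 in the test across stromal classes, 3 to 6 between dpMSC-like cells and stromal subcluster 2 and 2 to 5 between the chondrocyte-like clusters; a lone preparation is then assumed to vary like the pair of the other group. In classes other than basophil lineage-like and chondrocyte-like cells Ctss had at most 9 UMIs in a preparation, too few for a precise value.

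The labels do not say whether preparations of equal number pair Control with Fracture. Deviations of equal numbers correlated by 0.006 to 0.069 over all genes tested in a class, a check that cannot exclude a shared batch. With the number as a replicate block, chondrocyte-like cells had 4 called members (23.7% of genes) and fibroblast-like cells 1 (8.26%); without the replicate block, which the tests between classes hold, 3 were called between dpMSC-like cells and stromal subcluster 2 (11.9%), 2 between the chondrocyte-like clusters (6.82%) and 8 across the stromal classes (47.4%). Without the count filter, 6 members were called in fibroblast-like (17.5%), 1 in basophil lineage-like (2.49%) and 5 in erythroid-like cells (15.9%). DESeq2 called 2 in basophil lineage-like (8.8%) and 5 in erythroid-like cells (18.9%). With doublets removed 1 was called in basophil lineage-like cells (1.66%), and with library size alone 3 between dpMSC-like cells and stromal subcluster 2 (25.9%). In chondrocyte-like cluster 4 alone 2 were called (13%), and there Ctsh turned to -0.12 on the log2 scale, not called, the only called effect that reversed under any alternative. The cause of these shifts was not tested. Of the members' effects under all alternatives in the stromal classes, 501 kept their side of the threshold, 76 lost it and 27 gained it, and in blood classes and subclasses 394, 22 and 35 did. Doublet removal moved 10 of 162 class levels by more than 1 SD.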
